A study of Danio rerio with 10 samples.

Results

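The cytosolic ribosomal protein genes encode the protein components of the small (RPS) and large (RPL) subunits of the ribosome that translates nuclear-encoded mRNA. They were chosen by symbol: RPS or RPL followed by a number, with copy letters and suffixes kept, and with the P-stalk proteins P0 to P2 included, the ribosomal S6 kinases and pseudogenes left out. The rule gave 83 genes, of 24943 genes detected in at least 1 library and 32520 genes in the count files. All 83 were detected in at least 1 library, 36 of them for the small subunit and 47 for the large subunit. The rule itself used only symbols and detection, but the family was chosen with earlier results of these data known.

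The study asked how cloche (npas4l), a gene for a transcription factor needed for blood and endothelial cell formation in the zebrafish embryo, acts in the platelets (thrombocytes) of the injured adult heart. RNA-seq was run on 10 pools of sorted heart cells, each of 6000 cells from 15 ventricles, in 2 experiments. In the first, cells positive for the CD41-eGFP reporter were sorted from 3 pools of clofv087b/+ fish (clo/+ below), heterozygous for a cloche allele, and from 3 pools of wild-type fish. Every heart of that experiment had been amputated at the ventricle, 1 day earlier by the sample labels and 3 days earlier by the series text. In the second, cells positive for the gata1a-DsRed reporter were sorted 7 days after 4-hydroxytamoxifen (4-HT), the drug that activates Cre-ERT2, from 2 pools labelled Npas4l OE and 2 control pools. No day after amputation is given for the pools of this second experiment. The Npas4l OE fish carried gata1a:Cre-ERT2 and ubi:loxp-eGFP-stop-loxp-Npas4l, so that Cre acted where the gata1a promoter is active, which includes erythroid cells as well as thrombocytes. Control 2 is labelled with the loxp transgene and no Cre, while the genotype of control 1 is given as clofv087b/+, so the 2 controls are not alike by their labels. A pool mixes 15 fish, and the p-values measure the spread between 2 or 3 such pools, which nothing in the labels ties to separate clutches or days.

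Ribosomal proteins are made in near-equal amounts because each ribosome holds a single copy of almost every one of them. In vertebrates their mRNAs begin with a terminal oligopyrimidine (TOP) tract, through which their translation is controlled together by mTOR signalling. Blood cells are known to be sensitive to their dose: in humans, loss of a single copy of RPS19 and of several other members causes Diamond-Blackfan anaemia, and loss of a copy of RPS14 contributes to the anaemia of 5q- syndrome. Mature thrombocytes of fish keep a nucleus, unlike mammalian platelets.

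The libraries held 6764258 to 13067068 counts in genes, in 17882 to 19644 genes with a count. The genes of the reporters, itga2b (CD41) and gata1a, were detected in every library. The labels call the sorted cells platelets. Genes listed as thrombocyte markers summed to 7987 to 18074 CPM (counts relative to a common library size) across the libraries. Genes listed as cardiomyocyte markers summed to 17462 to 56218 CPM, so both were present in every pool. Genes listed as erythroid markers summed to 8688 to 13651 CPM in the pools of the CD41 experiment and to only 943 to 2087 CPM in the gata1a experiment. itga2b was lower in the CD41 experiment, at 457 to 1327 CPM, than in the gata1a experiment, at 2249 to 3133 CPM. gata1a ranged from 207 to 470 CPM in the CD41 experiment and from 388 to 826 CPM in the gata1a experiment. Transcript levels of npas4l did not separate the labelled groups. Its counts were 14, 17 and 32 in clo/+ pools and 6, 33 and 14 in wild-type pools (log2 fold change 0.04, SE 0.71; Benjamini-Hochberg adjusted p = 0.987, edgeR quasi-likelihood test). They were 451 and 265 in the libraries labelled Npas4l OE and 344 and 230 in control libraries (log2 fold change 0.21, SE 0.35; Benjamini-Hochberg adjusted p = 0.826, edgeR quasi-likelihood test). Directions below are therefore those of the labels.

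In the gata1a experiment the ribosomal protein genes were lower as a group in the libraries labelled Npas4l OE. They took 2.97% and 3.10% of all gene counts in Npas4l OE libraries, against 3.53% and 4.29% in control libraries, a mean of 3.03% ± 0.0917 against 3.91% ± 0.536 (SD, n = 2 each). Both Npas4l OE libraries lay below both controls, and the controls differed from each other by more than the Npas4l OE libraries did. The 95% exact binomial (Clopper-Pearson) intervals of these shares cover counting error only. They ran from 2.95% to 2.98% and 3.08% to 3.11% in Npas4l OE libraries. In control libraries they ran from 3.52% to 3.54% and 4.28% to 4.30%. In bulk samples such as these, fewer cells of a type and less RNA per cell cannot be told apart.

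The CD41 experiment showed overlapping shares. The ribosomal protein genes took 5.48%, 4.10% and 4.69% of gene counts in clo/+ pools, against 5.16%, 4.54% and 5.29% in wild-type pools. The means were 4.76% ± 0.691 in clo/+ and 5.00% ± 0.400 in wild type (SD, n = 3 each), and clo/+ 1 and clo/+ 2 were the highest and the lowest of the 6 pools. All 6 pools were above the Npas4l OE libraries. The experiments differ in reporter, in the injury and time given for them and in the summed level of erythroid markers, which cannot be told apart. The split between the subunits hardly moved: small subunit genes held 40.3% to 42.2% of the members' counts across the 10 libraries.

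**Figure D1:**
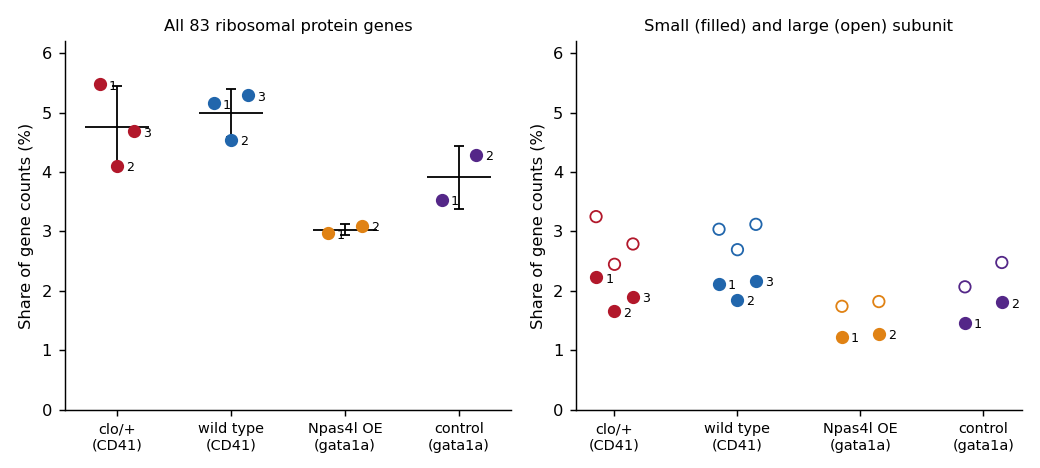
Share of gene counts (percent, vertical axis) in each of the 10 libraries, numbered by replicate, taken by all 83 ribosomal protein genes (left, with each group's mean and SD) and by small (filled) and large (open) subunit genes (right). The Npas4l OE libraries (2.97% and 3.10%) lie below both controls (3.53% and 4.29%), while clo/+ (4.10% to 5.48%) and wild type (4.54% to 5.29%) overlap.

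The library size behind each CPM was scaled by the trimmed mean of M-values (TMM) over all 10 libraries. CPM is not divided by transcript length, so levels are compared between libraries. Where genes are ranked by CPM, the rank is one of counts and not of transcript numbers. Averaged over the 10 libraries, 75 members were above 100 CPM, 7 of them above 1000 CPM, and 4 were below 10 CPM. The 6 members with the most counts were RPS2, RPLP0, RPL3, RPL19, rpl7a and RPL4, and RPS2 alone gave 3.78% to 5.09% of the members' counts in a library.

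Of the 4 members below 10 CPM, 3 carried almost no reads. rps11l had 0 counts in every Npas4l OE, control and clo/+ library, and 0, 2 and 1 counts in wild type. RPL26 had 6, 1 and 2 counts in clo/+ pools, 0, 2 and 0 in wild type, 1 and 0 in Npas4l OE and 2 and 1 in control. RPL9 had 18, 1 and 2 counts in clo/+ against 14, 20 and 4 in wild type, and 3 and 5 in Npas4l OE against 6 and 5 in control. Both proteins L9 and L26 are core parts of the large subunit, and how the authors' counting treated their other copies is not given in the sources used here. After a filter on low counts, 80 members were tested in the gata1a experiment and 81 in the CD41 experiment.

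In Npas4l OE against control, all 80 members tested had a log2 fold change below 0, where 50.6% of all 14006 genes tested did. Their median was -0.58, against -0.010 for all genes tested, and their quartiles were -0.65 and -0.53. The Npas4l OE libraries lay below both controls for 79 of the 80 members, against 24.1% of all genes tested, and RPL7L1 was the exception. No member passed 0.05 after Benjamini-Hochberg adjustment in the edgeR quasi-likelihood test, a threshold that 0.0357% of all genes tested passed (5 genes), and the lowest adjusted p of a member was 0.157. At an unadjusted p of 0.05, 69 of the 80 were lower, against 9.36% of all genes tested. DESeq2 called 2 of the 79 members to which it gave an adjusted p, RPS26 (ENSDARG00000037071) and RPL7, both lower, where 2.52% of all genes with an adjusted p were called lower, so that share is near the background. limma-voom called 0 members and 0.643% of all genes tested. The members were chosen as a family, they are co-expressed, and they are not independent of each other, so these counts describe 4 libraries and are not 80 separate results.

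The difference was carried unevenly by the controls. Without control 1, the genotype of which is labelled clofv087b/+, the median of the members was -0.73 and the edgeR quasi-likelihood test called 71 of 80 members lower after Benjamini-Hochberg adjustment, against 4.4% of all genes tested in that fit. Without control 2 the median was -0.41, 79 of 80 members were still below 0, 64 were lower at an unadjusted p under 0.05, against 8.03% of all genes tested, and 0 were called, against 1.03% of all genes in either direction. Without Npas4l OE 1 the median was -0.53, and without Npas4l OE 2 it was -0.59; 0 members had an unadjusted p under 0.05 in either fit, where 4.02% and 7.46% of all genes were lower at that threshold. Each of these fits leaves a lone library in a group, which is assumed to vary like the other group. With no TMM scaling, by library size only, the median of the members was -0.39 while that of all genes tested shifted by 0.19 to 0.18, 78 of 80 members were below 0, against 38.4% of all genes tested, and 6 were lower at an unadjusted p under 0.05, against 5.36%.

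Other measures separated these 4 libraries as well. Genes of cardiomyocytes summed to 27598 and 26052 CPM in Npas4l OE libraries and to 45809 and 56218 CPM in controls, and all 16 of those tested had a log2 fold change below 0. Their median log2 fold change was -0.91, and 12 were lower at an unadjusted p under 0.05, against 9.36% of all genes tested. Erythroid genes summed to 1001 and 943 CPM in Npas4l OE and to 2087 and 1128 CPM in control, with 10 of 11 tested below 0. Their median log2 fold change was -2.08, and 9 were lower at an unadjusted p under 0.05, against 9.36% of all genes tested. The erythroid sums include gata1a, the gene of the sort reporter, at 826 and 642 CPM in Npas4l OE and 707 and 388 CPM in control. Macrophage genes summed to 453 and 1301 CPM in Npas4l OE and to 2081 and 3708 CPM in control, with 16 of 17 tested below 0. The median log2 fold change of the macrophage genes was -1.83, and 13 were lower at an unadjusted p under 0.05. In the edgeR quasi-likelihood test 1 of them passed 0.05 after Benjamini-Hochberg adjustment, against 0.0357% of all genes tested. Of the endothelial genes, 10 of 12 tested were below 0, with a median log2 fold change of -0.76. At an unadjusted p under 0.05, 6 of the 12 were lower and 2 higher, against 9.36% and 6.11% of all genes tested. Their summed level overlapped, at 1895 and 1759 CPM in Npas4l OE and 1809 and 1690 CPM in control. Thrombocyte genes summed to 18074 and 16480 CPM in Npas4l OE and to 14226 and 14920 CPM in control, with 10 of 14 tested above 0. At an unadjusted p under 0.05, 4 of the thrombocyte genes were higher and 1 lower, against 6.11% and 9.36% of all genes tested. Of the lists' genes, f13a1a (thrombocyte), slc4a1a (erythroid) and tnni1b (cardiomyocyte) were at 0 in all 10 libraries, each by one of its matched identifiers. The 13 mitochondrially encoded genes matched by symbol held 7.50% and 8.17% of gene counts in Npas4l OE and 10.65% and 11.9% in control. Reads outside genes made up 11.4% and 11.6% of reads in Npas4l OE and 6.22% and 9.82% in control. The part of these differences in the levels of ribosomal protein genes was not tested. Shares were also taken with the 13 mitochondrially encoded genes and the most abundant identifier, ENSDARG00000080337, removed from the total. The members then took 3.73% ± 0.188 in Npas4l OE and 5.16% ± 0.818 in control (SD, n = 2 each).

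**Figure D2:**
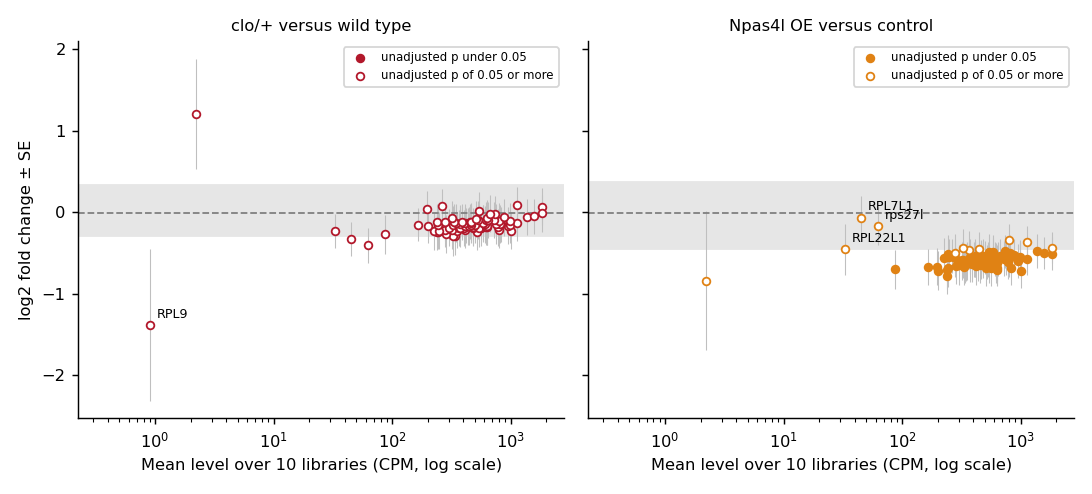
Log2 fold change with SE (vertical axis) of each tested ribosomal protein gene against its mean CPM over the 10 libraries (log axis), in clo/+ against wild type (left) and Npas4l OE against control (right); filled points have an unadjusted p under 0.05, the dashed line is the median and the grey band the quartile range of all genes tested. The members centre on -0.16 in clo/+ against wild type and on -0.58 in Npas4l OE against control.

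Small subunit genes had a median log2 fold change of -0.58 in Npas4l OE against control, and large subunit genes -0.57. Among the small subunit, RPS26 (ENSDARG00000037071), whose protein lines the mRNA exit channel, had the smallest p of all members. It had 147 and 155 CPM in Npas4l OE, against 239 and 280 CPM in control (log2 fold change -0.78, SE 0.22; Benjamini-Hochberg adjusted p = 0.157, edgeR quasi-likelihood test). rps27a, which is translated as a fusion to ubiquitin and so supplies free ubiquitin as well, had 605 and 651 CPM in Npas4l OE and 904 and 1157 CPM in control (log2 fold change -0.72, SE 0.22). In both genes the groups were apart, and the gap between them was wider than the gap between the controls for RPS26 and about equal to it for rps27a.

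RPS2, a protein of the mRNA entry channel, had 1426 and 1364 CPM in Npas4l OE and 1779 and 2174 CPM in control (log2 fold change -0.51, SE 0.20). rps3, another entry channel protein that also takes part in DNA repair, had 572 and 544 CPM in Npas4l OE and 725 and 824 CPM in control (log2 fold change -0.48, SE 0.20). RPS6, the substrate of the S6 kinases downstream of mTOR, had 456 and 450 CPM in Npas4l OE and 611 and 701 CPM in control (log2 fold change -0.54, SE 0.20). Of these 3, RPS6 lay within the quartiles of the members, and RPS2 and rps3 had smaller differences, above the upper quartile of -0.53.

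Of the genes tied to human anaemias, RPS19 and RPS14 lay close to the median of the members, and RPS29 had a smaller difference, above their upper quartile. RPS19 had 287 and 299 CPM in Npas4l OE and 398 and 479 CPM in control (log2 fold change -0.59, SE 0.21). RPS14 had 408 and 412 CPM in Npas4l OE and 559 and 661 CPM in control (log2 fold change -0.58, SE 0.21). RPS29, mutated in some Diamond-Blackfan families, had 221 and 232 CPM in Npas4l OE and 258 and 363 CPM in control (log2 fold change -0.46, SE 0.23; unadjusted p = 0.0791, edgeR quasi-likelihood test). In RPS29 control 1 was nearer to the Npas4l OE libraries than to control 2.

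Of the large subunit, RPL7 had 392 and 398 CPM in Npas4l OE and 608 and 675 CPM in control (log2 fold change -0.70, SE 0.20; Benjamini-Hochberg adjusted p = 0.173, edgeR quasi-likelihood test). RPL21 had 297 and 319 CPM in Npas4l OE and 456 and 517 CPM in control (log2 fold change -0.66, SE 0.21). RPL34 had 309 and 319 CPM in Npas4l OE and 441 and 568 CPM in control (log2 fold change -0.69, SE 0.22). In each of these genes the Npas4l OE libraries differed from each other by less than the controls did, and the groups did not overlap.

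RPL3, which reaches into the peptidyl transferase centre, had 1072 and 1062 CPM in Npas4l OE and 1454 and 1557 CPM in control (log2 fold change -0.50, SE 0.19). RPL4, which lines the exit tunnel, had 814 and 821 CPM in Npas4l OE and 1028 and 1062 CPM in control (log2 fold change -0.36, SE 0.20; unadjusted p = 0.0959, edgeR quasi-likelihood test). RPL10, a protein added late in assembly and needed for the subunits to join, had 688 and 654 CPM in Npas4l OE and 816 and 884 CPM in control (log2 fold change -0.34, SE 0.20; unadjusted p = 0.114 by the same test). RPL4 and RPL10 were thus among the members with the smallest differences, with no overlap between the groups.

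RPL5 and RPL11 form a complex with the 5S rRNA that binds Mdm2, a ubiquitin ligase, when ribosome assembly is disturbed. RPL11 had 262 and 289 CPM in Npas4l OE and 393 and 439 CPM in control (log2 fold change -0.60, SE 0.21). Of the 2 RPL5 identifiers, ENSDARG00000015862 had 124 and 136 CPM in Npas4l OE and 182 and 231 CPM in control (log2 fold change -0.67, SE 0.23), and ENSDARG00000020197 had 192 and 177 CPM in Npas4l OE and 254 and 281 CPM in control (log2 fold change -0.54, SE 0.21). All 3 were lower in both Npas4l OE libraries than in either control.

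The P-stalk recruits the elongation factors to the ribosome and is built of P0 with P1 and P2. RPLP0 had 1394 and 1298 CPM in Npas4l OE and 1728 and 1894 CPM in control (log2 fold change -0.43, SE 0.20; unadjusted p = 0.0508, edgeR quasi-likelihood test). RPLP1 had 305 and 333 CPM in Npas4l OE and 399 and 491 CPM in control (log2 fold change -0.49, SE 0.22). The P2 proteins come from rplp2, with 585 and 603 CPM in Npas4l OE and 716 and 1008 CPM in control (log2 fold change -0.54, SE 0.23), and from rplp2l, with 129 and 141 CPM in Npas4l OE and 190 and 236 CPM in control (log2 fold change -0.66, SE 0.22). Each of the 4 stalk genes was lower in both Npas4l OE libraries than in either control.

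**Figure D3:**
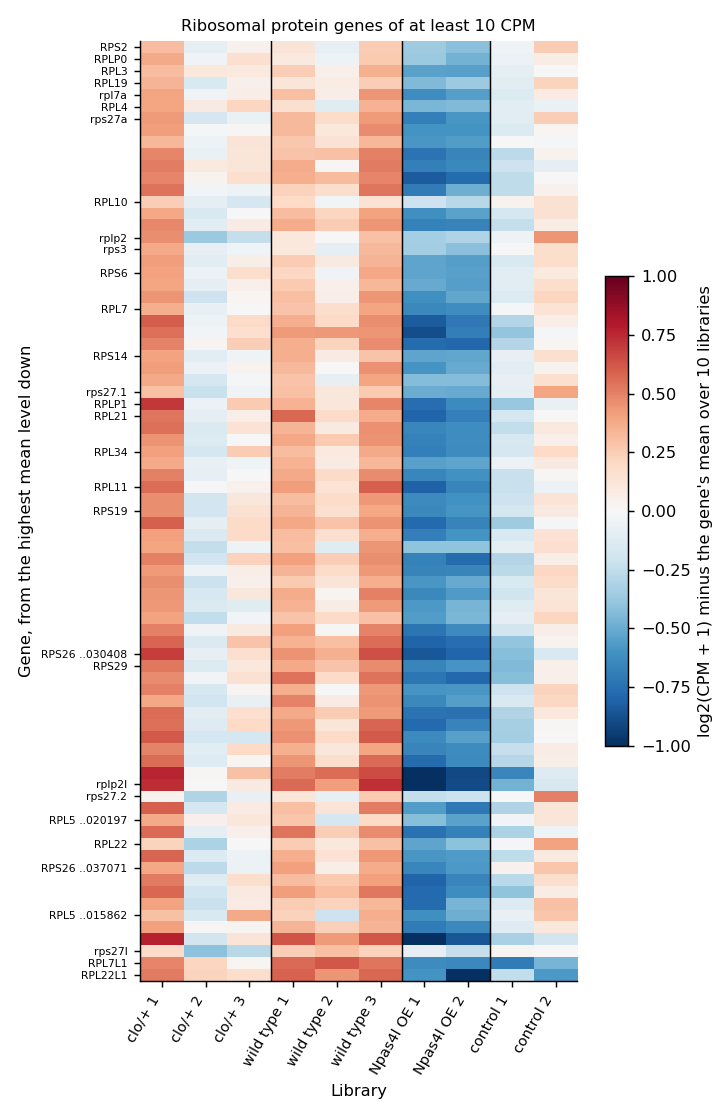
Level of the 79 ribosomal protein genes with a mean of at least 10 CPM in each library, as log2(CPM + 1) minus the gene's mean over the 10 libraries, with colours saturating at 1 in either direction and names given for genes described in the text. Npas4l OE libraries are below the mean in all 79 genes and clo/+ 1, wild type 1 and wild type 3 above it in all 79.

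The heat map of the 79 members with a mean of at least 10 CPM shows how far the genes of a library moved together. All 79 were below their own 10-library mean in both Npas4l OE libraries, with median deviations of -0.64 and -0.59 on the log2(CPM + 1) scale. In controls 76 members were below their mean in control 1 (median -0.17) and 17 in control 2 (median 0.087). In clo/+ pools 0, 68 and 21 members were below their mean (medians 0.46, -0.11 and 0.069), and in wild-type pools 0, 11 and 0 (medians 0.34, 0.14 and 0.43). The clo/+ pools thus spanned the whole range of the CD41 experiment, and the controls lay between the Npas4l OE libraries and the wild-type pools.

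In clo/+ against wild type, 75 of the 81 members tested had a log2 fold change below 0, where 50.2% of all 13749 genes tested did. The median was -0.16, against -0.0021 for all genes tested, with quartiles of -0.19 and -0.11, and it was -0.16 in each subunit. No member passed 0.05 after Benjamini-Hochberg adjustment in the edgeR quasi-likelihood test, which 0.0145% of all genes tested passed (2 genes). The count of members at an unadjusted p under 0.05 was 0 as well, against 12% of all genes tested, and DESeq2 and limma-voom called 0 members. Only rps27l and RPL7L1 had clo/+ pools that all lay below the wild-type pools, which is 2 of 81 members against 9% of all genes tested.

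This small difference rested on single pools. Without clo/+ 1 the median was -0.32, with 79 of 81 members below 0 and 5 lower at an unadjusted p under 0.05, where 49.5% of all genes tested were below 0 and 4.8% lower at that threshold. Without clo/+ 2 the median was -0.034, with 53 of 81 members and 50.6% of all genes tested below 0. Leaving out wild type 3 gave -0.074 and leaving out wild type 2 gave -0.22. By library size only, 71 of 81 members were below 0, against 45.8% of all genes tested.

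Markers of other cell types differed between these pools as well. Macrophage genes summed to 1164, 1258 and 1180 CPM in clo/+ and to 846, 1074 and 900 CPM in wild type, with 17 of 18 tested above 0 (median log2 fold change 0.41, 4 at an unadjusted p under 0.05). Endothelial genes summed to 1173, 1202 and 1070 CPM in clo/+ and to 1007, 895 and 1036 CPM in wild type, with 11 of 12 tested above 0 (median 0.42, 5 at an unadjusted p under 0.05). The clo/+ pools lay above the wild-type pools in both sums. Of all genes tested, 7.19% were higher at an unadjusted p under 0.05. Thrombocyte genes summed to 7987 to 12836 CPM in clo/+ and 10540 to 12269 CPM in wild type, with 11 of 15 tested below 0 (median -0.29). Cardiomyocyte genes summed to 19682 to 32706 CPM in clo/+ and 17462 to 31240 CPM in wild type, with 7 of 16 below 0. Erythroid genes summed to 8688 to 13651 CPM in clo/+ and 10754 to 12015 CPM in wild type, with 6 of 11 tested below 0 (median -0.038). The part of these differences in the levels of ribosomal protein genes was not tested.

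Of the 6 members with a log2 fold change above 0, 5 were RPLP0, RPLP1, RPL4 and the 2 RPL5 identifiers. RPLP0 had 2341, 1761 and 2021 CPM in clo/+ and 1923, 1740 and 2164 CPM in wild type (log2 fold change 0.071, SE 0.22). RPL4 had 1462, 1186 and 1292 CPM in clo/+ and 1249, 1024 and 1416 CPM in wild type (log2 fold change 0.094, SE 0.22). RPL5 (ENSDARG00000020197) had 336, 268 and 280 CPM in clo/+ and 313, 230 and 296 CPM in wild type (log2 fold change 0.073, SE 0.21). The groups overlapped in all of these, and without single pools the sign of each of the 3 turned.

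The best-known members gave the same picture of overlap. RPS19 had 620, 393 and 499 CPM in clo/+ and 569, 502 and 589 CPM in wild type (log2 fold change -0.14, SE 0.22). RPL11 had 677, 455 and 473 CPM in clo/+ and 612, 503 and 694 CPM in wild type (log2 fold change -0.17, SE 0.23). RPS2 had 2264, 1716 and 1884 CPM in clo/+ and 1995, 1725 and 2184 CPM in wild type (log2 fold change -0.011, SE 0.22). clo/+ 1 was the highest of the 6 pools in RPS19 and RPS2 and the second highest in RPL11.

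**Figure D4:**
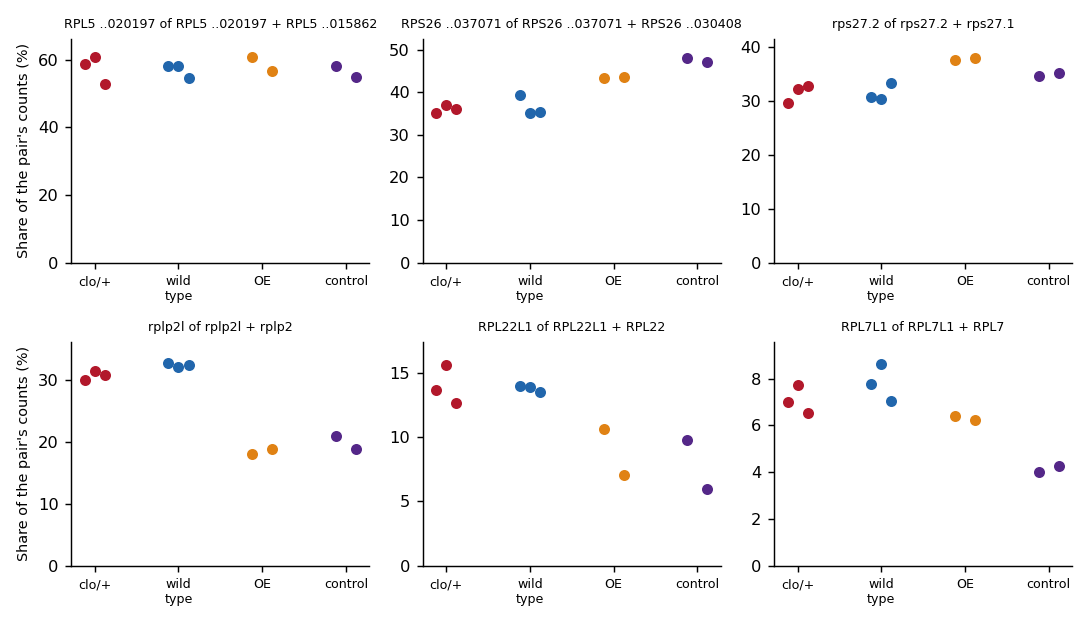
Share of a pair's summed counts (percent, vertical axis) held by the first-named gene in each library, for 6 pairs of copies or paralogues, with OE for Npas4l OE and identifiers shortened to their last digits. RPL7L1 held 6.39% and 6.24% of its pair in Npas4l OE and 4.03% and 4.28% in control, and the 2 RPL5 identifiers kept like proportions in all 10 libraries.

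Several members are copies of each other from the genome duplications of fish or older events, and reads that cannot be placed in a single copy may be split between them or lost: 16.9% to 20.7% of reads had several alignments. rps27l, a paralogue of rps27, had 71.0, 46.5 and 51.0 CPM in clo/+ and 73.6, 76.7 and 72.9 CPM in wild type (log2 fold change -0.40, SE 0.21; Benjamini-Hochberg adjusted p = 0.457, edgeR quasi-likelihood test, unadjusted p = 0.0725). In the gata1a experiment it had 58.4 and 52.8 CPM in Npas4l OE and 63.3 and 61.7 CPM in control (log2 fold change -0.17, SE 0.23). It was among the members with the smallest differences in Npas4l OE against control and had the smallest p of the members in clo/+ against wild type.

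RPL7L1, a paralogue of RPL7, showed a like pattern. It had 59.5, 48.9 and 42.7 CPM in clo/+ and 62.9, 65.3 and 61.3 CPM in wild type (log2 fold change -0.33, SE 0.21), and 26.8 and 26.5 CPM in Npas4l OE and 25.5 and 30.2 CPM in control (log2 fold change -0.066, SE 0.27). Its share of the summed counts of RPL7L1 and RPL7 was 6.39% and 6.24% in Npas4l OE against 4.03% and 4.28% in control, and 7.01%, 7.73% and 6.54% in clo/+ against 7.76%, 8.63% and 7.05% in wild type. By library size only, the log2 fold change of RPL7L1 in Npas4l OE against control was 0.12 and that of rps27l 0.016, so the sign of neither is firm.

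RPL22L1, the paralogue of RPL22, a protein needed for lymphocyte development in the mouse, had 19.8 and 13.6 CPM in Npas4l OE and 25.5 and 20.1 CPM in control (log2 fold change -0.45, SE 0.31). RPL22 had 166 and 180 CPM in Npas4l OE and 237 and 317 CPM in control (log2 fold change -0.68, SE 0.23). In clo/+ against wild type their log2 fold changes were -0.23 and -0.24 (SE 0.21 each). The share of RPL22L1 in the pair's summed counts overlapped between Npas4l OE (10.65% and 7.02%) and control (9.72% and 5.96%). It overlapped between clo/+ and wild type as well, so the pair was not seen to part in either comparison.

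The remaining pairs divided their counts in nearly fixed proportions within an experiment. RPS26 (ENSDARG00000037071) held 43.3% and 43.6% of the RPS26 counts in Npas4l OE and 48.0% and 47.2% in control, against 35.0% to 36.9% in clo/+ and 35.1% to 39.3% in wild type. rps27.2 held 37.5% and 38.0% of the counts of rps27.1 and rps27.2 in Npas4l OE and 34.7% and 35.1% in control, with 29.5% to 32.7% in clo/+ and 30.4% to 33.3% in wild type. rplp2l held 18.1% and 18.9% of the counts of rplp2 and rplp2l in Npas4l OE and 21.0% and 18.9% in control, with 30.1% to 31.5% in clo/+ and 32.1% to 32.8% in wild type. The proportions thus differed more between the experiments than within them, and they are given with no test. The RPL5 identifiers stayed at 52.96% to 60.9% for ENSDARG00000020197 across all 10 libraries.

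Whether the members differed more in one comparison than in the other was tested with an interaction term over all 10 libraries, taken as the log2 fold change of clo/+ over wild type minus that of Npas4l OE over control. It was above 0 for 78 of 81 members, where 50.9% of all 15380 genes tested were above 0, with a median of 0.44 against 0.017 for all genes tested. No member passed 0.05 after Benjamini-Hochberg adjustment in the edgeR quasi-likelihood test, against 0.774% of all genes tested (119 genes), and 0 had an unadjusted p under 0.05, against 15.3% of all genes tested. DESeq2 and limma-voom called 0 members there too. The smallest p was that of RPL5 (ENSDARG00000015862), with an interaction of 0.71 (SE 0.34; unadjusted p = 0.0513, edgeR quasi-likelihood test). The differences in the 2 comparisons were thus not told apart for any single member. Of the 80 members tested in both, 74 had a log2 fold change below 0 in both. As all 80 were below 0 in Npas4l OE against control, that count only repeats the direction in clo/+ against wild type. The comparisons share no library.

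Within each comparison the members stayed close together. In Npas4l OE against control 74 of 80 lay within 0.15 of their median log2 fold change, 78 were below -0.3, and the SD over the 79 members above 10 CPM was 0.111. For clo/+ against wild type 72 of 81 lay within 0.15 of the median and the SD was 0.0877. Across these 79 genes, which share libraries and so are not independent, Spearman's rho between mean CPM and log2 fold change was 0.192 in Npas4l OE against control and 0.465 in clo/+ against wild type. The 40 members with more counts had a median log2 fold change of -0.57 in Npas4l OE against control and the other 39 had -0.59; in clo/+ against wild type the medians were -0.13 and -0.17.

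The genes beside the ribosomal proteins in translation did not all share the difference. FAU and faub, which encode a small subunit protein fused to a ubiquitin-like protein, had log2 fold changes of -0.53 and -0.57 in Npas4l OE against control and of -0.21 and -0.44 in clo/+ against wild type. RACK1, a signalling scaffold on the small subunit, had 697 and 682 CPM in Npas4l OE and 921 and 822 CPM in control (log2 fold change -0.34, SE 0.20). si:dkey-151g10.6, listed in RefSeq with the synonym rpl41, had 503 and 526 CPM in Npas4l OE and 653 and 830 CPM in control (log2 fold change -0.53, SE 0.21), and 1495, 931 and 977 CPM in clo/+ against 1356, 1223 and 1433 CPM in wild type (log2 fold change -0.24, SE 0.24). In Npas4l OE against control, 3 of 5 other genes with TOP mRNAs were below 0, with a median of -0.49, among them TPT1 (-0.56), naca (-0.57) and BTF3 (-0.49). The last pair encodes the nascent chain complex that binds the ribosome where the new peptide leaves it.

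Elongation factors had a median of -0.28 in Npas4l OE against control, with 8 of 11 tested below 0, led by EEF1D (-0.71) and eef1da (-0.68), parts of the exchange factor of eEF1A, and eif5a (-0.52). Initiation factors had a median of -0.064, with 22 of 36 below 0, and the smallest p values belonged to EIF4H (0.83), EIF3K (-0.60) and pabpc1a (0.50), the last a poly(A)-binding protein. Ribosome biogenesis genes had a median of 0.013, with 32 of 65 below 0. The members' downward difference was therefore not seen in the median of the genes that assemble ribosomes, although no gene of these lists passed 0.05 after Benjamini-Hochberg adjustment in the edgeR quasi-likelihood test in either comparison. At an unadjusted p under 0.05, 3 elongation, 2 initiation and 2 biogenesis genes were lower and 1, 2 and 2 were higher. Of all genes tested, 9.36% were lower and 6.11% higher at that threshold.

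The genes of the mitochondrial ribosome, which translates only the mitochondrial genome and shares no protein with the cytosolic one, were lower too. Of 75 tested, 72 had a log2 fold change below 0 in Npas4l OE against control, with a median of -0.40. At an unadjusted p under 0.05, 17 were lower, led by MRPL23 (-0.96), MRPL32 (-0.95) and mrpl34 (-0.94), against 9.36% of all genes tested. Among clo/+ and wild-type pools 60 of 75 were below 0, with a median of -0.15. At an unadjusted p under 0.05, 5 of the 75 were lower there, against 4.79% of all genes tested. A downward median was therefore not particular to the cytosolic family in either comparison.

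The other translation lists, in clo/+ against wild type, leaned the other way or stayed near 0. Elongation factors had a median of 0.072, with 7 of 11 above 0, among them eef2b (0.67) and EEF2 (0.70), which move the ribosome along the mRNA. Initiation factors had a median of 0.016, and the genes with the smallest p were the poly(A)-binding proteins pabpc1b (1.22; Benjamini-Hochberg adjusted p = 0.151, edgeR quasi-likelihood test) and pabpc1a (0.82), and EIF4G1 (-0.59). Other TOP genes had a median of 0.0076 and biogenesis genes 0.082.

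**Figure D5:**
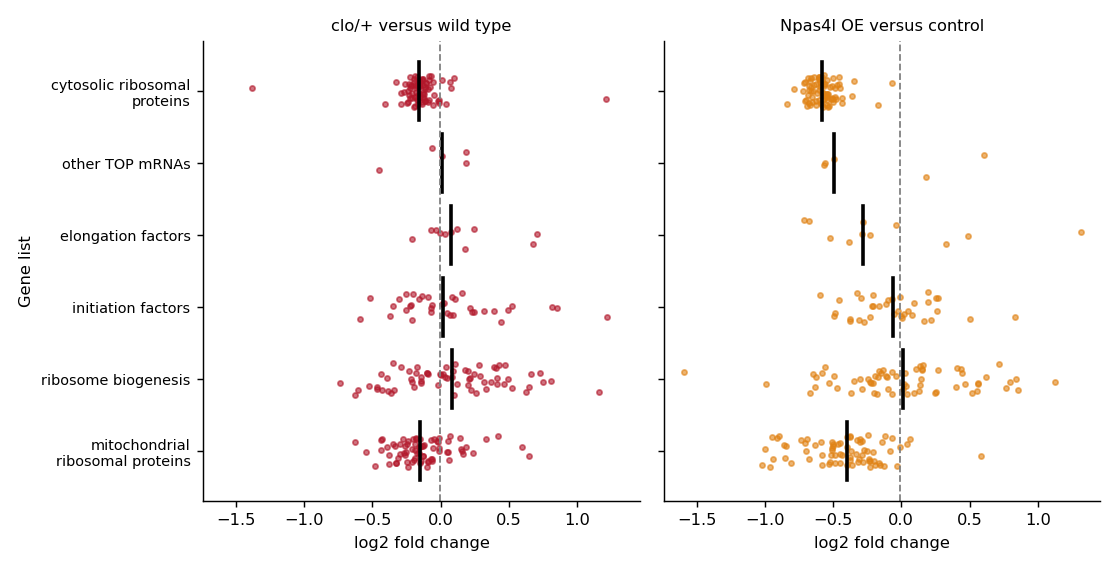
Log2 fold change (horizontal axis) of each tested gene of the ribosomal protein family and of 5 other translation lists, in clo/+ against wild type (left) and Npas4l OE against control (right); black bars are list medians and the dashed line the median of all genes tested. In Npas4l OE against control the medians run from -0.58 (cytosolic ribosomal proteins) and -0.40 (mitochondrial ribosomal proteins) to 0.013 (ribosome biogenesis).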

How the data were processed

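cDNA was primed with oligo(dT), amplified by PCR and tagmented, per the labels' protocols, with no molecular identifiers or strand mark named. The authors deposited whole-number counts of reads per Ensembl gene, 1 file per library. The submitters' processing notes name FastQC 0.11.4, Trim Galore 0.6.0, HISAT2 2.1.0, DESeq2 1.22.1 and GRCz11, and the read counter is not given in the sources used here. Reads of a gene and of an antisense partner cannot be told apart. The summary lines of each file (no gene, ambiguous, low quality, not aligned, several alignments) were left out, and genes held 41.0% to 49.3% of the reads. Symbols come from an Ensembl name table, mostly in human-style capitals, which named 29201 of 32520 identifiers; 4 symbols among the members belong to 2 identifiers each.

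Each experiment was fitted by itself with edgeR 4.0.16 in R 4.3.3 (filterByExpr with a minimum count of 10 and total of 15, TMM factors, quasi-likelihood test), with Benjamini-Hochberg adjustment over all genes tested and a threshold of 0.05. The interaction was fitted over all 10 libraries. Members and gene lists were chosen with earlier results of these data known. Members named are those with the smallest p in each direction, the most or least counts, a known role, or a copy, and in other lists the 3 genes with the smallest p. Some genes and lists that this rule names are not reported here. List genes with no match under their own symbol were matched without the copy letter. No label says that a replicate number marks a shared day or batch, so the numbers were not taken as pairs. Same-numbered libraries had correlated deviations of 0.0144, 0.0949 and 0.104 (CD41) and 0.0783 (gata1a). The best correlations with another number were 0.018, -0.0123 and -0.000932 (CD41) and -0.0783 (gata1a). With 2 pools per group the gata1a values mirror each other by construction. These values do not decide whether the libraries were paired. The scripts were tested on simulated data. Alternatives were limma-voom (limma 3.58.1), DESeq2 1.42.0, other scalings and filters, a replicate block and leaving out each library, and edgeR's adjusted deviance, chosen after seeing the data. Plots were drawn with matplotlib 3.10.9.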

Additional observations from a re-analysis of the deposited data

How the results depend on the processing

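In clo/+ against wild type, 2 genes of all tested were called; the count was 211 with no filter on low counts, 150 by DESeq2, 120 with a replicate block, 4 when every library needed at least 10 counts, 4 with edgeR's adjusted deviance, 1 in a joint fit of all 10 libraries, 1 by limma-voom, 1 with TMM factors computed without the ribosomal protein genes, and 0 to 17 without single libraries. Members called stayed at 0 in every alternative run. With the replicate block 1 member was lower at an unadjusted p under 0.05, against 6.26% of all genes tested. Without single libraries 0 to 5 members had an unadjusted p under 0.05. The 5 were lower and came without clo/+ 1, where 4.8% of all genes tested were lower at that threshold. The median log2 fold change of the members ran from -0.32 to -0.034 without single libraries. In Npas4l OE against control, 5 genes were called; the count was 2 by library size only, 648 with no filter, 385 by DESeq2, 187 with the replicate block, 110 in a joint fit of all 10 libraries, 90 by limma-voom, 69 with adjusted deviance, 30 when every library needed at least 10 counts, and 52 to 1111 without single libraries. DESeq2 called 2 of 79 members, both lower, where 2.52% of all genes with an adjusted p were called lower. Without single libraries, 0 to 71 members were called. The 71 were lower and came without control 1, where 4.4% of all genes tested were called lower. By library size only, 6 members were lower at an unadjusted p under 0.05, against 5.36% of all genes tested. Without single libraries, 0 to 76 members had an unadjusted p under 0.05. The 76 were lower and came without control 1, against 11.6% of all genes tested. These fits leave a lone library in a group. The median of the members was -0.39 by library size only and -0.73 to -0.41 without single libraries. For the interaction, 119 genes were called; the count was 67 by library size only, 640 with no filter, 500 by DESeq2 and 20 to 248 without single libraries, and the median of the members ran from 0.25 to 0.57 without single libraries. Shares of gene counts without mitochondrially encoded genes and ENSDARG00000080337 averaged 3.73% in Npas4l OE, 5.16% in control, 6.03% in clo/+ and 6.39% in wild type.

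Of 1045 values of named members under the alternatives, 36 turned their sign, 33 of them in clo/+ against wild type, where the fold changes are near 0. There RPLP1 was -0.016 by limma-voom and -0.014 with the replicate block. RPS2 was 0.041 by library size only, 0.00072 with no filter and 0.0057 where every library needed at least 10 counts. By library size only, RPL3 was 0.00305, RPS6 0.037 and rps3 0.0296, and RPS6 was 0.0015 with at least 10 counts. Without single libraries, RPL4 ran from -0.022 to 0.22, RPL5 (ENSDARG00000020197) from -0.050 to 0.17, RPLP0 from -0.032 to 0.17, RPL5 (ENSDARG00000015862) from -0.11 to 0.19, RPLP1 from -0.21 to 0.18, RPS2 from -0.12 to 0.083, RPL3 from -0.13 to 0.031, RPL19 from -0.19 to 0.052, RPS6 from -0.13 to 0.10, RPS19 from -0.30 to 0.017, rplp2 from -0.44 to 0.017 and rps3 from -0.18 to 0.11. In Npas4l OE against control, by library size only, RPL7L1 was 0.12 and rps27l 0.016, and RPL7L1 ran from -0.18 to 0.070 without single libraries. The cause of these changes was not tested. The replicate block, over numbers that no label calls pairs, changed no call of a member. Counting error is small for members above 10 CPM, and the spread between 2 or 3 pools limits what can be told apart; RPL9, RPL26 and rps11l had too few counts to compare.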

Other observations

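Of the ribosome biogenesis genes, nop16 (-1.60), DDX56 (1.13) and NOP10 (-0.99) had the smallest p in Npas4l OE against control, and tsr1 (1.16), NOP58 (0.81) and IMP4 (-0.74) in clo/+ against wild type. None of the ribosome biogenesis genes passed 0.05 after Benjamini-Hochberg adjustment in the edgeR quasi-likelihood test. At an unadjusted p under 0.05 in Npas4l OE against control, 2 of 65 were higher and 2 lower. The shares over all genes tested were 6.11% higher and 9.36% lower. In clo/+ against wild type, 5 of 67 were higher and 2 lower, against 7.19% and 4.79% of all genes tested.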
